A study of Homo sapiens with 12 samples.

Results

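The S100 genes encode small calcium-binding proteins, and 10 of them with a link to invasion of breast cancer cells (S100A2, S100A3, S100A4, S100A6, S100A10, S100A11, S100A13, S100A14, S100A16 and S100P) were followed by gene symbol among the 58381 genes of an RNA-seq count table. The table holds 12 libraries from Hs578T and MDA-MB-231, human cell lines of triple negative breast cancer, with 3 libraries in each of 4 groups. CD44 is the cell surface receptor for hyaluronan, and the CD44 knockout (KO) cells were sorted as populations rather than grown from single clones after Cas9 cutting of the gene. All 4 groups carried the inducible Cas9, including the CD44 WT (unedited) cells, which received the transfection reagent without guides, and all were kept in low serum and sorted as live CD29+ cells, with CD44+ cells taken for CD44 WT and CD44- cells for CD44 KO. Of the 10 genes, 9 passed the filter on low counts and were tested among 15836 genes, and S100A14 did not pass.

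An S100 protein usually works as a dimer that opens a binding surface when calcium is bound, and through it meets a partner protein such as an annexin, a myosin or an enzyme. S100A10 is the exception, since it has lost calcium binding and stays in the active shape. Several S100 proteins are also released from cells and act on surface receptors, and S100A4 and S100P in particular are known for their part in the motility and spread of tumor cells. Most of the human family lies in 1 cluster on the long arm of chromosome 1, while S100P lies on chromosome 4.

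The promoters of S100P, S100A6 and S100A4 are shown because these 3 genes had the largest positive fold changes on CD44 KO in Hs578T, and that of S100A11 as a member with a high level and little change. Each line holds the 120 bases that end just before the start of the transcript, from RefSeq on GRCh38.p14, and the capitals mark TATAAN, the letters of a TATA box (N is any base), where it begins 20 to 40 bases before the start. The stretches lie at chr4:6693758-6693877 on the plus strand for S100P, and on the minus strand at chr1:153535992-153536111 for S100A6, chr1:153545807-153545926 for S100A4 and chr1:152037005-152037124 for S100A11.
S100P: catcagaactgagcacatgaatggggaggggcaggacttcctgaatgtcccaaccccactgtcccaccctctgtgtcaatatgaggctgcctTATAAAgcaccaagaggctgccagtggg
S100A6: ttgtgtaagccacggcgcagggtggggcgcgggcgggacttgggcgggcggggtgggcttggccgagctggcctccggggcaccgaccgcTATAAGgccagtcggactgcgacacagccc
S100A4: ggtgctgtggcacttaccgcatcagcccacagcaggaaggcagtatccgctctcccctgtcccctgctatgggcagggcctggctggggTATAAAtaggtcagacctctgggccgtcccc
S100A11: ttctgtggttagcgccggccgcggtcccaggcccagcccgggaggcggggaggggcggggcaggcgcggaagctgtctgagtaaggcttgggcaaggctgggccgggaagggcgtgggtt

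All 10 genes had at least 1 promoter entry, and 14 entries in all. TATAAN began 20 to 40 bases before the start on the gene's own strand in 5 of the 14 entries, those of S100A4, S100A6, S100A14, S100P and 1 of the 3 entries of S100A13, against 3.91% of all 35116 promoter entries. In the whole 250 bases before the start, searched on both strands, TATAAN was found in 5 entries, against 18.9% of all. The letters TGANTCA, which AP-1 factors bind, stood in 2 of the 14 entries, S100A3 and 1 of S100A2, against 6.57% of all. GGGCGG, the core of a GC box, stood in 6 entries against 42.6% of all, and CCAAT in 3 against 32%. The 250 bases of S100P held 55.6% G and C and 4 CpG sites, and those of S100A6 held 70% and 24, where the median of all entries was 58% and 11. A match of letters describes the sequence and is no measurement of binding.

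CD44 itself fell in both lines, with levels in Hs578T of 507 ± 17.6 CPM (normalized counts scaled to the size of the library, mean ± SD, n = 3) before and 27.3 ± 2.06 CPM after CD44 KO. In MDA-MB-231, CD44 KO cells kept 34.2 ± 5.40 of 362 ± 1.70 CPM, and the log2 fold changes of -4.21 and -3.40 had adjusted p of 3.16e-12 and 4.57e-11 in edgeR's test. Libraries held 10257586 to 19725543 counts. All 5 mesenchymal markers listed for these cells (VIM, ZEB1, CDH2, FN1 and SNAI2) were counted in all groups, with a summed level between 5100 and 10317 CPM, although CDH2 reached at most 0.624 CPM in MDA-MB-231. Among the 7 luminal or epithelial markers, PGR had 0 counts in all 12 libraries and CDH1 at most 0.971 CPM, while EPCAM was at 13.7 to 22.2 CPM in MDA-MB-231. In MDA-MB-231 CD44 KO, replicate 3 was highest of its group for 7 of the 9 tested S100 genes, and replicate 1 was lowest for all 9. The fold changes that replicate 3 moved most are given below with fits that leave out 1 library.

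The levels of the 10 genes spanned more than 3 orders of magnitude, and the same few members led in both lines. Per kilobase of exonic length, which allows levels of different genes to be compared, S100A11 was highest in Hs578T CD44 WT with 515 ± 32.7 CPM per kb (n = 3), followed by S100A6 with 443 ± 23.7. S100A4 followed with 212 ± 33.5 CPM per kb and S100A10 with 148 ± 10.9. S100A3 (3.69 ± 0.672) and S100P (2.95 ± 0.633) were the only neighbours in this order whose libraries overlapped. At the low end, S100A14, a gene of epithelial cells, was at 0.249 ± 0.217 CPM per kb.

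In MDA-MB-231 CD44 WT the order was led by S100A6 with 620 ± 56.2 CPM per kb and S100A11 with 384 ± 61.0, and S100A4 stood in the fifth place with 19.8 ± 6.04. S100A3 and S100A2 overlapped there as neighbours, with 7.73 ± 1.20 and 5.47 ± 1.10 CPM per kb. On CD44 KO, S100A6 led in Hs578T as well, with 641 ± 33.3 CPM per kb against 481 ± 15.2 for S100A11, and S100P stood above S100A3 with 10.8 ± 2.84 against 2.71 ± 0.401. The 10 genes summed to 1432 ± 88.1 CPM in Hs578T CD44 WT and 1684 ± 69.7 CPM in Hs578T CD44 KO, of which S100A6 made up 28.4 to 31.1% and 36.3 to 37.6%. The sums in MDA-MB-231 were 1332 ± 95.1 CPM in CD44 WT and 1419 ± 306 CPM in CD44 KO, with 42.8 to 48.8% and 47.8 to 56.1% from S100A6.

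**Figure D1:**
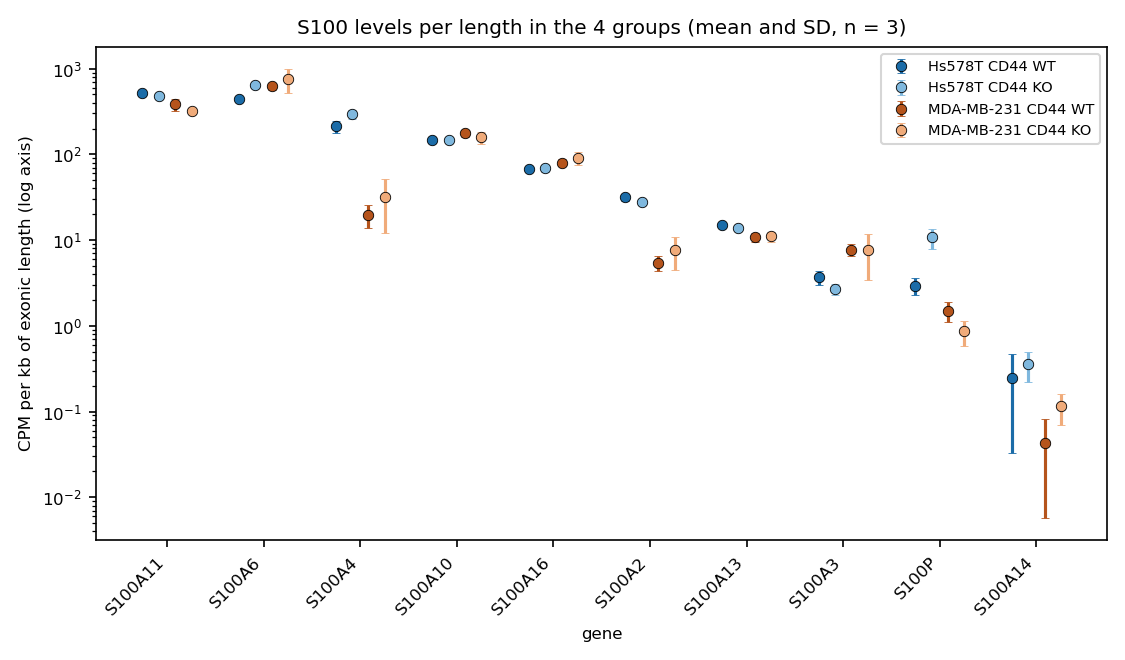
Level of each S100 gene as CPM per kb of exonic length (log axis) in the 4 groups, with genes ordered by Hs578T CD44 WT. Points are means and bars the SD of 3 libraries. S100A11 and S100A6 lie at the top in every group, between the CD44 WT groups S100A4 differs most in height, and S100A14 lies at the bottom.

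To determine which S100 transcripts changed with loss of CD44, CD44 KO was compared with CD44 WT within each line. In Hs578T, S100P rose 3.64-fold and was the single member called among the 9 tested (11.1%), beside 7.51% of all genes called in either direction. Calls required a p of at most 0.01 from edgeR's quasi-likelihood test after Benjamini-Hochberg adjustment over all genes. DESeq2 called 2 of the 9, S100P and S100A6, beside 9.81% of all genes, and 2 had an unadjusted p under 0.05 in edgeR. The median log2 fold change was -0.03 over the 9 members and -0.0016 over all genes tested. In these bulk samples, a change in the number of cells that express a gene and a change of RNA per cell cannot be told apart.

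S100P (ENSG00000163993.6, chromosome 4, 6693069 to 6697170, plus strand), a secreted and intracellular S100 protein whose partners are ezrin and IQGAP1, was at 4.65, 3.62 and 3.05 CPM in Hs578T CD44 WT and at 13.96, 17.3 and 10.1 CPM in Hs578T CD44 KO. Every CD44 KO library lay above every CD44 WT library, as was the case in either direction for 37.3% of all genes. The log2 fold change was 1.86 (SE 0.240, 95% interval 1.35 to 2.38, adjusted p = 8.43e-05, edgeR's quasi-likelihood test). In all 19 alternative fits the call held, with log2 fold changes from 1.66 to 2.06. Its counts were modest, with 36 to 67 per library in CD44 WT and 118 to 281 in CD44 KO.

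Markers of other cell types were read beside this change. The 3 leukocyte markers summed to 1.04 to 1.48 CPM in Hs578T CD44 WT and 3.51 to 5.21 CPM in Hs578T CD44 KO, mainly through PTPRC, which encodes CD45 and went from 0.369 ± 0.179 to 3.78 ± 0.895 CPM (log2 fold change 3.33, adjusted p = 3.19e-05, same edgeR test). The other two, CD3E and CD14, stayed at or below 0.592 CPM in every Hs578T library. The 3 endothelial markers summed to 11.9 to 14.2 CPM in CD44 WT and 14.8 to 15.5 CPM in CD44 KO, and the 7 luminal or epithelial markers to 84.5 to 91.4 CPM and 96.4 to 109 CPM, of which ERBB2 made up 78.7 ± 3.13 and 94.5 ± 7.68 CPM without being called. The mesenchymal markers overlapped between the groups (8042 to 9207 and 8290 to 10317 CPM), with VIM called higher in CD44 KO (log2 fold change 0.38, adjusted p = 0.00386, edgeR's test). The part of these markers in the S100P result was not tested.

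S100A6 (ENSG00000197956.9, chromosome 1, 153534599 to 153536244, minus strand), also called calcyclin, is a partner of annexins and of the calcyclin-binding protein CACYBP. In Hs578T it was at 426, 456 and 410 CPM in CD44 WT and at 658, 596 and 614 CPM in CD44 KO, so that the groups did not overlap. The log2 fold change of 0.53 (SE 0.153, 95% interval 0.21 to 0.86) had an adjusted p of 0.0293 in the edgeR test and was not called. All 12 libraries share 1 estimate of the spread in this fit, and the coefficient of variation of S100A6 was 5.35% and 5.20% in the Hs578T groups and 9.06% in the unedited and 30.4% in the CD44 KO libraries of MDA-MB-231. S100A6 was called in 6 of 19 alternative fits (log2 fold change 0.49 to 0.58), including the looser threshold of 0.05. It was not called in any fit without 1 Hs578T library (adjusted p up to 0.101, edgeR's test). Nor was it called with blocks by replicate number or by label number (adjusted p = 0.0322 and 0.0129, same test). With Hs578T fitted alone the adjusted p was 4.77e-04 in the same edgeR test. Without MDA-MB-231 CD44 KO replicate 3 or replicate 1 it was 0.00167 or 0.00847. DESeq2 gave 0.00960. The cause of these shifts was not tested.

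S100A4 (ENSG00000196154.11, chromosome 1, 153543613 to 153550136, minus strand), a partner of non-muscle myosin, was at 238, 237 and 178 CPM in Hs578T CD44 WT and at 314, 259 and 334 CPM in Hs578T CD44 KO. The groups did not overlap, yet the log2 fold change of 0.47 (SE 0.288, 95% interval -0.14 to 1.09) was not called, with an adjusted p of 0.320 in edgeR's test. With the line fitted alone the adjusted p was 0.0182. Without a filter on low counts S100A4 was called in both lines (adjusted p = 1.33e-04 in Hs578T and 1.91e-06 in MDA-MB-231). In that fit the prior degrees of freedom of the spread became infinite, from 7.13, so every gene was given the spread of the trend in place of its own.

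The other 6 tested members were not called in Hs578T. S100A10, the annexin A2 partner that holds plasminogen at the cell surface, was at 247, 225 and 214 CPM in CD44 WT and at 214, 241 and 217 CPM in CD44 KO (log2 fold change -0.03, 95% interval -0.27 to 0.21). S100A11, a partner of annexins A1 and A2, was at 376, 342 and 334 CPM in CD44 WT and at 338, 318 and 326 CPM in CD44 KO (log2 fold change -0.10, 95% interval -0.31 to 0.11). Their intervals hold changes of up to 0.31 on the log2 scale in size.

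S100A16, a widely expressed member, was at 111 to 118 CPM in Hs578T CD44 WT and 108 to 130 CPM in CD44 KO (log2 fold change 0.02, 95% interval -0.23 to 0.28). S100A13, which takes part in the release of FGF1 and IL1A, was at 34.6, 32.7 and 32.3 CPM in CD44 WT and lower, at 30.7, 29.2 and 31.5 CPM, in CD44 KO. Although its groups did not overlap, the log2 fold change of -0.13 (SE 0.116) had an adjusted p of 0.541 in the edgeR test. Of its 2216 exonic bases, 536 are shared with ENSG00000271853 on the same strand, and fragments that hit both genes were not counted.

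S100A2 was at 45.5 to 54.7 CPM in Hs578T CD44 WT and 39.8 to 45.9 CPM in CD44 KO, overlapping groups with a log2 fold change of -0.19 (95% interval -0.60 to 0.22). S100A3, best known from the hair cuticle, was at 2.88 to 4.16 CPM in CD44 WT and 2.22 to 2.99 CPM in CD44 KO, with a log2 fold change of -0.46 and a wide interval of -1.22 to 0.29. The span of S100A3 lies within that of S100A4 on the same strand, but they share 0 exonic bases. In all, 4 of the 9 members had groups that did not overlap in Hs578T (S100P, S100A6, S100A4 and S100A13), against the 37.3% of all genes given above. For S100A14 the Hs578T libraries held 13 counts in all with CD44 WT and 19 with CD44 KO, too few for a test.

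**Figure D2:**
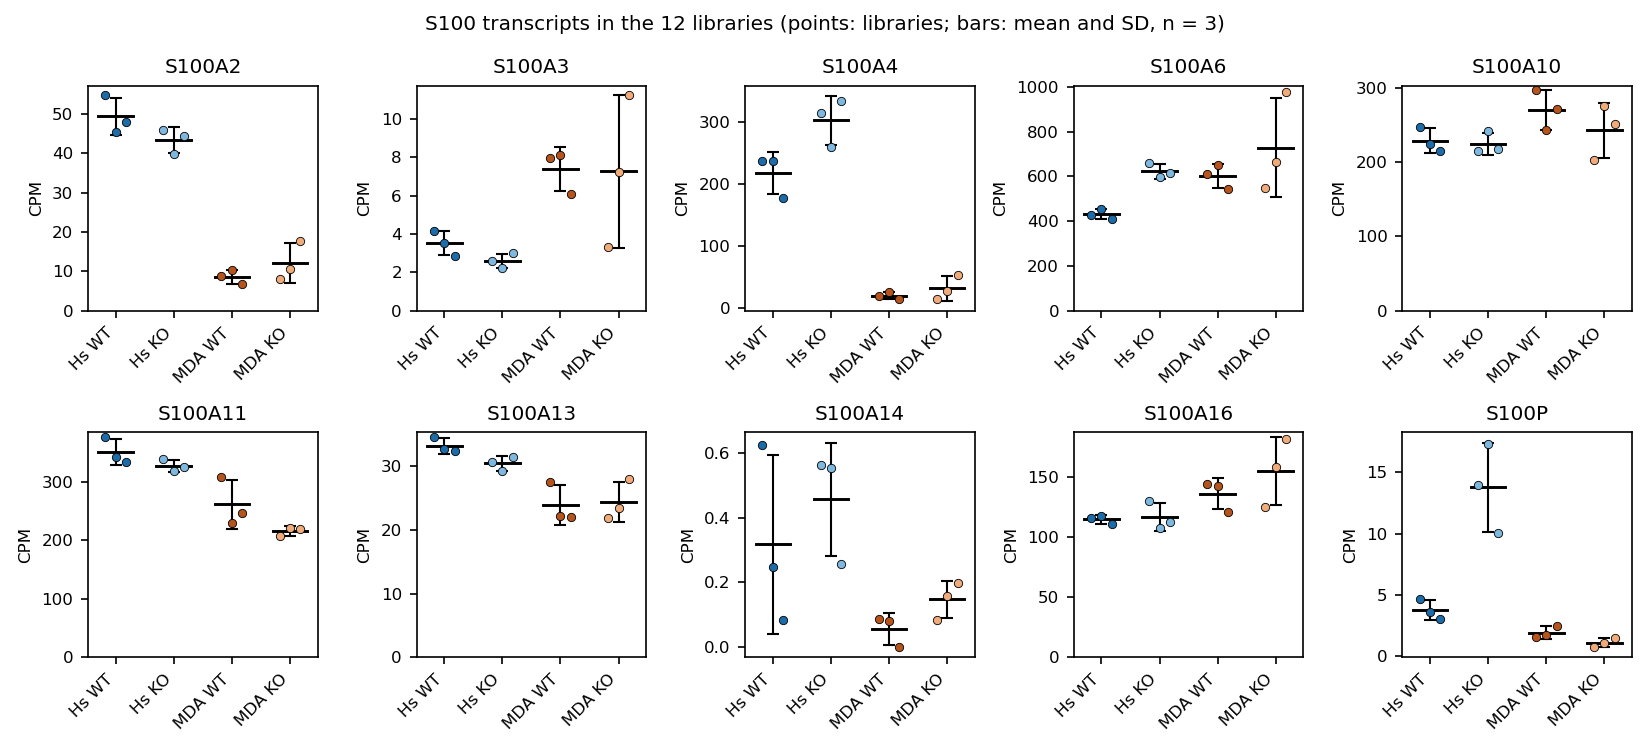
Normalized CPM of the 10 S100 genes in each library, 1 panel per gene with its own linear axis, for Hs578T (Hs) and MDA-MB-231 (MDA) CD44 WT and CD44 KO. Points are libraries, and bars the mean and SD (n = 3). S100P separates in Hs578T, S100A6 shifts from 410 to 456 up to 596 to 658 CPM there, and the MDA-MB-231 CD44 KO libraries scatter widely for S100A2, S100A3, S100A4 and S100A6.

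In MDA-MB-231 cells, 0 of the 9 tested members were called, by edgeR or by DESeq2, beside 4.62% and 7.19% of all genes called by them in either direction, and 2 members (S100A11 and S100P) had an unadjusted p under 0.05. These 2 were also the members whose groups did not overlap, which held for 25.5% of all genes. The median log2 fold change was 0.03 over the 9 members and -0.01 over all genes tested. The 5 mesenchymal markers summed to 5100 to 5352 CPM in CD44 WT and 6650 to 7697 CPM in CD44 KO of this line. The sum was mainly VIM, which was called higher (log2 fold change 0.43, adjusted p = 0.00253, edgeR's test). ZEB1 and SNAI2 (0.44 and 0.57) were not called, nor were CDH2 and FN1 (-0.42 and -0.01). The 7 luminal or epithelial markers summed to 86.7 to 118 CPM and 87.0 to 99.8 CPM. Of these, GATA3 and FOXA1 were called higher in CD44 KO (1.05 and 0.98, adjusted p = 0.00464 and 0.00623, same test). ERBB2, most of the sum, went the other way, from 76.0 ± 11.7 to 61.9 ± 3.87 CPM without overlap. It was not called (log2 fold change -0.30, adjusted p = 0.105, same test). EPCAM (-0.07) and ESR1 were not called either, and CDH1 and PGR were not tested. The part of all these markers in the S100 values was not tested.

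S100P was at 1.54, 1.70 and 2.49 CPM in MDA-MB-231 CD44 WT and at 0.762, 1.06 and 1.48 CPM in MDA-MB-231 CD44 KO. All CD44 KO libraries were thus below the CD44 WT libraries, with 9 to 20 counts against 18 to 28. The log2 fold change was -0.81 (SE 0.346, 95% interval -1.55 to -0.07), with an adjusted p of 0.170 in edgeR's test. S100A11 was at 308, 229 and 246 CPM in CD44 WT and at 207, 221 and 219 CPM in CD44 KO, with a log2 fold change of -0.28 (95% interval -0.49 to -0.06) and an adjusted p of 0.104 in the same test.

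The MDA-MB-231 CD44 KO libraries were spread widely, and replicate 3 had the highest level of the 6 libraries of the line for 6 of the 9 members (S100A2, S100A3, S100A4, S100A6, S100A13 and S100A16). Replicate 1 of the same group was the lowest CD44 KO library for all 9. S100A4 was at 19.7, 26.8 and 14.4 CPM in CD44 WT and at 15.1, 27.7 and 54.1 CPM in CD44 KO replicates 1, 2 and 3, a 3.59-fold range within the CD44 KO group. Its log2 fold change was 0.65 (SE 0.328, adjusted p = 0.250, edgeR's test) with all libraries, 0.11 without CD44 KO replicate 3 and 0.98 without CD44 KO replicate 1 (adjusted p = 0.884 and 0.0371).

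For S100A6, the CD44 WT libraries of MDA-MB-231 were at 610, 652 and 544 CPM and the CD44 KO libraries at 548, 663 and 975 CPM, with a log2 fold change of 0.27 (SE 0.152) that went to 0.02 without CD44 KO replicate 3. S100A2 was at 8.74, 10.2 and 6.77 CPM in CD44 WT and at 7.96, 10.7 and 17.7 CPM in CD44 KO (log2 fold change 0.47, SE 0.229, adjusted p = 0.228 in the edgeR test), and without CD44 KO replicate 3 its log2 fold change was 0.15. S100A3 ranged from 6.06 to 8.11 CPM in CD44 WT and from 3.30 to 11.3 CPM in CD44 KO, the widest spread among the tested members after S100A4, and its log2 fold change went from -0.04 to -0.44 without that library. At the upper end, fits without 1 library reached 0.44 for S100A6, 0.69 for S100A2 and 0.30 for S100A3. The groups overlapped for these 3 genes.

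For S100A16 the MDA-MB-231 libraries ranged from 121 to 144 CPM with CD44 WT and from 125 to 182 CPM with CD44 KO (log2 fold change 0.19, 95% interval -0.07 to 0.44, and 0.07 without CD44 KO replicate 3). S100A10 was at 243 to 297 CPM and 202 to 275 CPM (log2 fold change -0.15, 95% interval -0.39 to 0.08), and S100A13 at 22.1 to 27.6 CPM and 21.9 to 27.9 CPM (log2 fold change 0.03, 95% interval -0.23 to 0.28, and -0.06 without that library). At the upper end, fits without 1 library reached 0.32 for S100A16 and 0.14 for S100A13. For S100A14, CD44 WT libraries summed to 2 counts and CD44 KO libraries to 6. Its 0 counts in the CD44 WT library without a replicate number allow a level of up to 0.267 CPM, taking 3 counts as the limit, which covers counting error only.

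**Figure D3:**
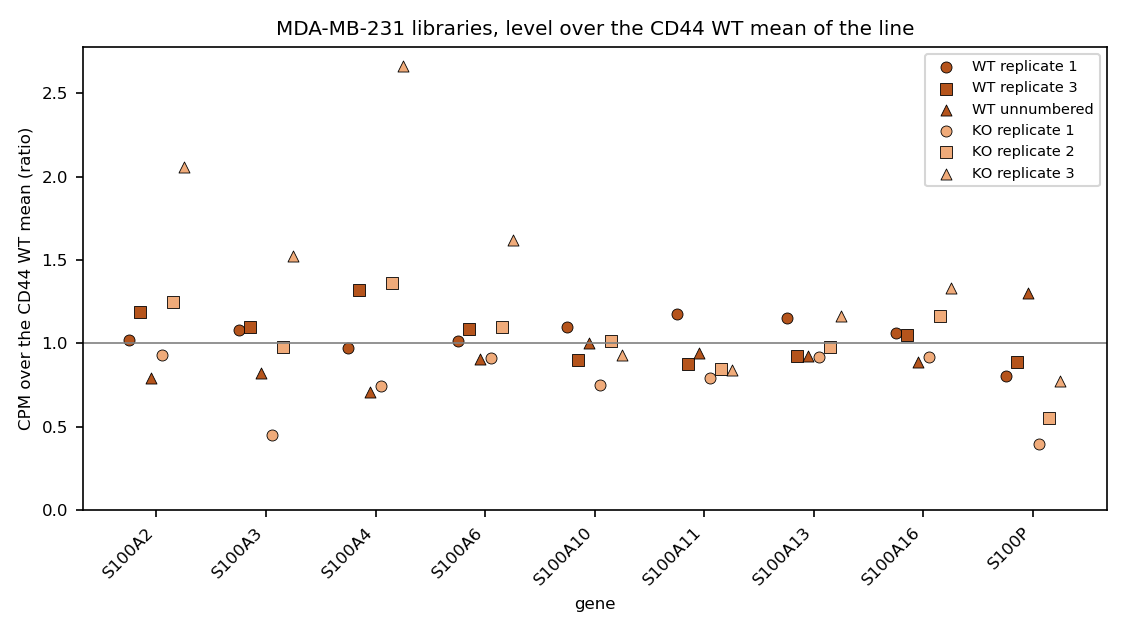
Level of each tested S100 gene in the 6 MDA-MB-231 libraries as a ratio to the CD44 WT mean of the line (linear axis, 1 marks the mean). Markers are single libraries. CD44 KO replicate 3 is the top point for 6 of the 9 genes, reaching 2.66 for S100A4 and 2.06 for S100A2, and the CD44 KO points of S100P and S100A11 lie below all CD44 WT points.

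Whether CD44 KO acted differently in the lines was tested as the difference of both log2 fold changes, Hs578T minus MDA-MB-231. S100P was called, with a difference of 2.67 (SE 0.421, 95% interval 1.78 to 3.57, adjusted p = 8.63e-04, edgeR's quasi-likelihood test), and it was the single call among the 9 members, beside 4.12% of all genes. For S100A2 the difference was -0.66 (95% interval -1.30 to -0.03, adjusted p = 0.182 in the same edgeR test), and -0.33 without MDA-MB-231 CD44 KO replicate 3, which also took that of S100A3 to -0.02. At the other end, fits without 1 library reached -0.88 for S100A2 and -0.76 for S100A3. For the 7 tested members other than S100P and S100A2, the difference with all libraries lay between -0.42 (S100A3) and 0.26 (S100A6). Their intervals covered 0.

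**Figure D4:**
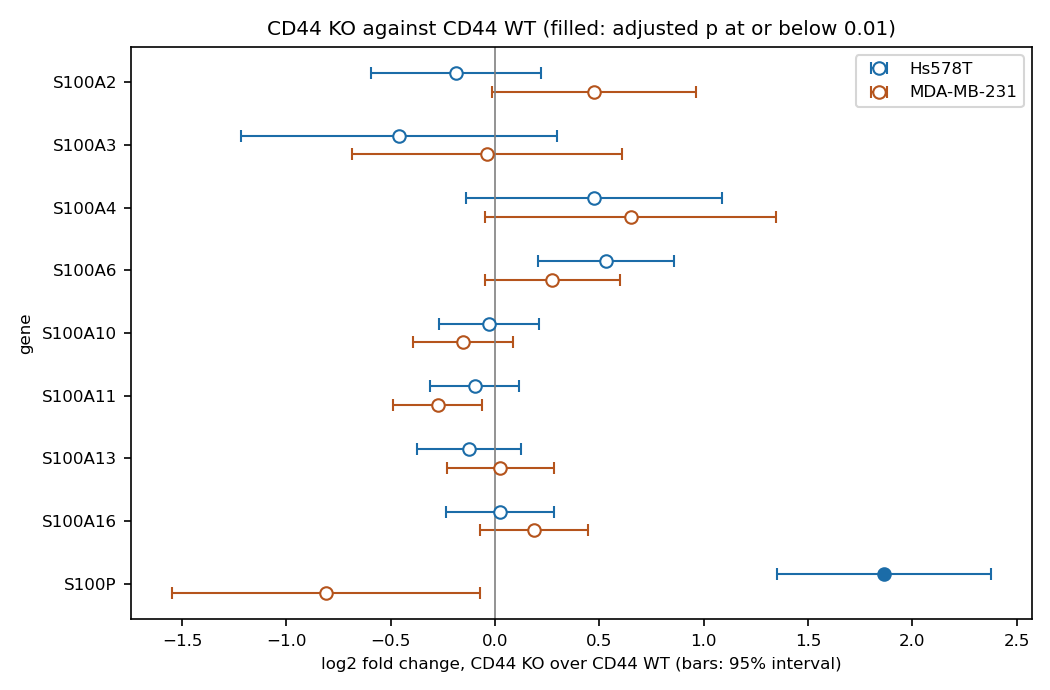
Log2 fold changes (horizontal axis, CD44 KO relative to CD44 WT) of the 9 tested S100 genes in both lines, with 95% intervals as bars. The filled point marks an adjusted p at or below 0.01. S100P lies at 1.86 in Hs578T and -0.81 in MDA-MB-231, while the intervals of both lines overlap for each of the other genes.

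The unedited lines differed in most of their S100 transcripts, at a share close to that of all genes. Between Hs578T CD44 WT and MDA-MB-231 CD44 WT, 6 of the 9 members were called (66.7%) beside 61.5% of all genes, and 8 had groups that did not overlap, beside 71.8% of all genes. S100A4 was 10.7-fold higher in Hs578T (178 to 238 against 14.4 to 26.8 CPM, log2 difference 3.42, SE 0.331, adjusted p = 1.96e-07, edgeR's test). S100A2 was 5.73-fold higher (45.5 to 54.7 against 6.77 to 10.2 CPM, log2 difference 2.52, SE 0.217, adjusted p = 5.18e-08, same edgeR test). With CD44 KO, the log2 fold change of neither gene exceeded 0.65 in size in either line.

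S100P was 1.99-fold higher in Hs578T CD44 WT (adjusted p = 0.00653, edgeR's test), S100A13 1.39-fold (adjusted p = 0.00216) and S100A11 1.34-fold (adjusted p = 0.00135). S100A3 was 2.08-fold lower in Hs578T, with a log2 difference of -1.06 (SE 0.324, adjusted p = 0.00849, same test). Of these smaller calls, those of S100P and S100A3 lay closest to the threshold. With 1 library left out, S100A3 lost its call in 9 of 12 fits, S100P in 4, S100A13 in 2 and S100A11 in 1. Without MDA-MB-231 CD44 WT replicate 3 the called members were 2, S100A2 and S100A4. S100A6 was lower in Hs578T by a log2 difference of -0.48 without overlap, at an adjusted p of 0.0103, and was called by DESeq2. S100A16 (-0.24) and S100A10 (-0.24) were not called, with adjusted p of 0.0846 and 0.0662 in the edgeR test.

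Beyond the members, 31 genes whose proteins are known partners of S100 proteins were read by role, and 29 of them were tested. In Hs578T, 2 were higher and 2 lower on CD44 KO, and in MDA-MB-231 2 were higher, so 13.8% and 6.9% of those tested were called beside the 7.51% and 4.62% of all genes. The list was chosen with earlier results of these data known, so such shares describe the list only. DESeq2 called 8 and 4 of the 29, beside 9.81% and 7.19% of all genes. Groups did not overlap for 18 and 11 of the 29, beside 37.3% and 25.5% of all genes, and 18 and 11 had an unadjusted p under 0.05 in edgeR. Over the partners the median log2 fold change was 0.09 for Hs578T and 0.04 for MDA-MB-231.

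Among the 5 annexins, ANXA1, a partner of S100A11, rose in Hs578T from 118, 242 and 393 CPM (lowest to highest) to 610, 613 and 621 CPM (log2 fold change 1.29, SE 0.265, adjusted p = 0.00381, edgeR's test). In MDA-MB-231 it was at 1029 to 1197 CPM in CD44 WT and 771 to 857 CPM in CD44 KO (log2 fold change -0.44, adjusted p = 0.331), and the difference between the lines was 1.74 (adjusted p = 0.00766, same edgeR test). The Hs578T call was lost in 5 of 19 alternative fits (log2 fold change 0.95 to 1.77), among them the line fitted alone and the fit without any 1 of its CD44 KO libraries, and the difference was lost in 11 of 18. ANXA2, which forms a complex with S100A10, was at 1154 to 1227 CPM and 1317 to 1380 CPM in Hs578T and was not called in either line (log2 fold change 0.17 and -0.25).

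Of the 9 genes of the cytoskeleton and membrane scaffold, TPM1, a tropomyosin, fell in Hs578T from 124 to 194 CPM in CD44 WT to 94.2 to 110 CPM in CD44 KO (log2 fold change -0.61, SE 0.126, adjusted p = 0.00425, edgeR's test). IQGAP1, a scaffold protein bound by S100P, rose in MDA-MB-231 from 284, 432 and 482 CPM to 610, 657 and 672 CPM (log2 fold change 0.70, SE 0.140, adjusted p = 0.00502, same test). Each of these calls was lost in 5 of 19 alternative fits (-0.76 to -0.44 for TPM1 and 0.50 to 0.85 for IQGAP1), 1 of them for IQGAP1 the line fitted alone and the rest fits without 1 library. EZR, another partner of S100P, and MYH9, the myosin bound by S100A4, were not called in either line. EZR had log2 fold changes of -0.04 in Hs578T and -0.30 in MDA-MB-231 (adjusted p = 0.794 and 0.0261, edgeR's test). Those of MYH9 were 0.27 and -0.21 (adjusted p = 0.0330 and 0.103, same test), without overlap in either line. The difference between the lines for MYH9 was 0.48 and was not called (adjusted p = 0.0123, same test).

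The receptors and surface targets included PLAT, the tissue plasminogen activator that binds S100A10. It fell in Hs578T from 37.2, 45.4 and 46.6 CPM to 18.9, 22.7 and 22.8 CPM (log2 fold change -1.01, SE 0.182, adjusted p = 0.00153, edgeR's test), a call lost only without Hs578T CD44 KO replicate 2. In MDA-MB-231 PLAT was at 147 to 234 CPM in CD44 WT and 232 to 329 CPM in CD44 KO (log2 fold change 0.51, not called), and the lines differed by -1.52 (adjusted p = 0.00105, same edgeR test). AGER, the receptor RAGE for released S100 proteins, was not tested, with 4 and 3 counts over the CD44 WT and CD44 KO libraries of Hs578T.

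Of the 3 genes that act with S100A13 in secretion, SYT1, the vesicle calcium sensor synaptotagmin 1, rose in both lines. In Hs578T it went from 2.497, 3.22 and 3.70 CPM to 11.2, 12.4 and 20.04 CPM (log2 fold change 2.22, SE 0.256, adjusted p = 3.23e-05, edgeR's test), and all 19 alternative fits kept the call. In MDA-MB-231 it went from 2.14, 3.08 and 4.10 CPM to 6.81, 8.13 and 8.16 CPM (log2 fold change 1.32, SE 0.267, adjusted p = 0.00537), a call lost in 6 of 19 alternative fits, with the line fitted alone or without 1 of 5 MDA-MB-231 libraries. FGF1 and IL1A were not called in either line. The 7 nuclear and cytosolic targets, such as CACYBP, held 0 calls in both lines by edgeR's test, with an unadjusted p under 0.05 for 3 in Hs578T and 1 in MDA-MB-231, while DESeq2 called 2 and 0.

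Among 18 further genes of the S100 and fused S100 families, 2 passed the filter and both differed between the unedited lines. S100A5 was at 2.70 to 4.28 CPM in Hs578T CD44 WT and 3.88 to 6.42 CPM in CD44 KO, and at 0.857 to 1.46 CPM and 0.424 to 2.07 CPM in MDA-MB-231. S100A1 was at 1.02 to 2.84 CPM and 1.20 to 1.62 CPM in Hs578T and at most 0.0857 CPM in any MDA-MB-231 library. With CD44 KO, edgeR and DESeq2 called 0 of the 2 in either line, and 0 had an unadjusted p under 0.05.

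Around the chromosome 1 cluster, between the outermost members and 1 Mb to either side (150982915 to 154631360), 55 other genes were tested. In Hs578T 0 of them were called by edgeR or DESeq2, beside 7.51% and 9.81% of all genes, and 13 had an unadjusted p under 0.05 in edgeR. The median log2 fold change of the 55 was -0.08 there, beside -0.0016 over all genes tested. In MDA-MB-231 2 were called (3.64%), beside 4.62% of all genes, with a median of -0.07 beside -0.0096. SELENBP1 was lower in CD44 KO (log2 fold change -4.27, SE 0.775, adjusted p = 0.00242, edgeR's test), a call lost in 4 of 18 alternative fits (-6.12 to -3.57), and RAB13 rose by 0.41 (SE 0.0899, adjusted p = 0.00828), a call lost in 12 of 19 (0.36 to 0.48). DESeq2 called 3 of the 55 in that line, beside 7.19% of all genes.

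The genes whose log2 CPM was most like that of S100P over the 12 libraries were CALCOCO2 (Pearson r = 0.974), RBCK1 (r = 0.972) and PIK3AP1 (r = 0.971). These r describe libraries that fall into 2 lines and 4 groups, and the same values entered the comparisons above. RBCK1 had log2 fold changes of 0.82 in Hs578T (adjusted p = 8.07e-05, edgeR's test) and -0.37 in MDA-MB-231 (adjusted p = 0.0390). PIK3AP1 had 1.69 (adjusted p = 1.38e-04) and -1.42 (adjusted p = 0.0101). CALCOCO2 was called in neither line, at 0.19 and -0.04.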

How the data were processed

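Counts per gene, which the authors deposited without normalization, were analysed for 12 libraries of 4 groups. Stranded mRNA libraries were read as pairs of 50 bp on 1 lane, aligned to GRCh38 with HISAT2 2.1.0 and counted by strand with featureCounts 1.6.2 on GENCODE 28, with a mapping quality of at least 10 and both ends aligned. Fragments that hit several genes were not counted, which lowers overlapping genes. The sources used here name no separate cultures for the 3 libraries of a group, so p-values measure the spread between these samples, which may be technical. The name of 1 MDA-MB-231 CD44 WT library stood in the labels of replicates 2 and 3, so it was used as a group member without a number.

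Tested genes had over 1 CPM in 2 or more libraries and at least 300 nt of exons. The study's methods keep genes below that length, which would remove CD44. R 4.3.3 and edgeR 4.0.16 were used with TMM factors, estimateDisp, the legacy quasi-likelihood fit over all 12 libraries and Benjamini-Hochberg adjustment over 15836 genes. CPM were scaled by these factors, and log2 CPM for likeness used a prior count of 2. Genes were named by rule: all 10 members, tested genes of the further S100 list, partners and neighbours called in either line, and the 3 genes most like each called member. The members and lists were chosen with earlier results of these data known. A listed partner gene and a listed marker are not reported here. Other partner genes were named as examples after their values were seen. Alternatives were RLE factors, DESeq2 1.42.0, no filter on low counts, an adjusted p of 0.05, each line alone, replicate blocks and each library left out. On simulated data for the Hs578T comparison (15836 genes), 64% of 100 genes changed by 1 and 89% of 100 changed by 2 on the log2 scale were recovered. Promoters came from RefSeq (GRCh38.p14), and no protein sequence was used here.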

Additional observations from a re-analysis of the deposited data

Results flagged for a closer look

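S100P was singled out because its response to CD44 KO differed between the lines. The log2 fold change in Hs578T minus that in MDA-MB-231 was 2.67 (SE 0.421, adjusted p = 8.63e-04, Benjamini-Hochberg adjustment of edgeR's quasi-likelihood p). All 3 Hs578T CD44 KO libraries lay above, and all 3 MDA-MB-231 CD44 KO libraries below, the CD44 WT libraries of their line. The fall in MDA-MB-231 did not pass the test alone and rests on 9 to 28 counts per library.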

How the results depend on the processing

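The S100P call in Hs578T and that of the difference between lines held in every alternative run. In Hs578T the called members were 2 with DESeq2, 2 at an adjusted p of 0.05, 2 with each line fitted alone and 3 without a filter on low counts (S100P, S100A6 and S100A4), and 1 to 2 with 1 library left out. In MDA-MB-231 they were 1 without the filter (S100A4) and 0 to 0 with 1 library left out, and for the difference 1 to 1. Between the unedited lines they were 2 to 7, the lowest without MDA-MB-231 CD44 WT replicate 3, and S100A3 lost its call in 9 of 12 such fits.

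All genes called in Hs578T were 1984 without the filter, 2253 at 0.05 and 1525 with the line alone. They were 605 to 1685 with 1 library left out. In MDA-MB-231 they were 1138 with DESeq2, 1370 without the filter, 1518 at 0.05, 315 with the line alone and 355 to 763 with 1 library left out. For the difference they were 1179, 1373, 1670 and, with 1 library left out, 396 to 804. Between the unedited lines they were 8669 to 9827 with 1 library left out.

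The replicate numbers did not pair the samples, since 1 of 15 pairs with the same number had a correlation of deviations over 0.1. Blocks of consecutive label numbers gave -0.00115 to 0.164, with 6 of 18 pairs over 0.1. Nearly all of these correlations were positive, if weak. The rule set beforehand asked for every pair over 0.1, so the main fit holds no block. The fit with this block called 1305 genes in Hs578T, 824 in MDA-MB-231 and 742 for the difference, beside 1189, 731 and 653 without it. Of the members it called 1, 0 and 1. It also called S100A6 between the unedited lines. With the replicate number as a block, which drops the unnumbered library, the calls in MDA-MB-231 fell to 436, S100A13 there turned to -0.00 (-0.00311) and the line differences of S100A3 and S100A13 were no longer called.

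Values near 0 changed sign when 1 library was left out. S100A10 in Hs578T ranged from -0.0834 to 0.0294, S100A16 in Hs578T from -0.0583 to 0.0813, S100A13 in MDA-MB-231 from -0.0630 to 0.138, S100A3 in MDA-MB-231 from -0.442 to 0.297, and the line difference of S100A4 from -0.51 to 0.37. For all shifts of calls with DESeq2 or a line fitted alone the cause was not tested. Depth limits S100A14, S100A3 and S100P most.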
